A study of Mus musculus with 12 samples.

Results

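The genes described here encode enzymes that make prostaglandin E2, its receptors, and the receptors for kinins, and 9 of the 55335 genes in the files belong to the set. They are the cyclooxygenases Ptgs1 and Ptgs2, the prostaglandin E synthase Ptges, the E-type prostanoid receptors Ptger1, Ptger2, Ptger3 and Ptger4, and the bradykinin receptors Bdkrb1 and Bdkrb2, each matched by its exact gene name. The set was selected on measured values of these same libraries, because Bdkrb1 was among the largest rises of compressed over freshly isolated cells. All values of that contrast, and the levels of Bdkrb1, are therefore given as descriptions without a test, except for Bdkrb1 in 5d-U against 2d-U, which the choice did not use. The other 8 genes were tested between the other pairs of groups, and 7 of them had enough reads to enter the test.

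The libraries come from muscle stem cells (MuSCs) of adult Pax7-ZsGreen mice, whose satellite cells carry the fluorescent protein ZsGreen driven from Pax7, in 4 groups of 3 libraries. ZsGreen-positive cells were sorted from hindlimb muscle, so the groups share the reporter and the sort, and no group carries a gene deletion. F cells were freshly isolated and sorted straight into TRIzol. Cells of the 2d-U and 5d-U groups were grown without compression for 2 and 5 days on a coat of Matrigel and fibronectin, in a medium with serum, FGF and chicken embryo extract. 2+3d-C cells had 2 days of the same culture and then 3 days under a compression pillar. Each library is named by its group and the replicate number in its label, and neither the labels nor the study say which mice a library came from, so p-values measure the spread between these libraries.

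Kinins are short peptides cut from kininogens. Bradykinin itself acts on the B2 receptor (Bdkrb2), which many cells carry at rest, whereas the B1 receptor (Bdkrb1) prefers kinins that have lost their last arginine and is known as a receptor that inflammatory signals such as interleukin 1 induce. Prostaglandins begin with arachidonic acid, which Ptgs1 (COX-1) and Ptgs2 (COX-2) turn into prostaglandin H2 and Ptges into prostaglandin E2. Of its receptors, those encoded by Ptger2 and Ptger4 raise cAMP, Ptger3 mostly lowers it and Ptger1 acts on calcium. Prostaglandin E2 acting through the Ptger4 receptor is known to support MuSC expansion after muscle injury.

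Reads counted on genes ranged from 12540745 to 62424851 per library. Genes of families that muscle does not express (olfactory and taste receptors and the like) drew 5.03 and 7.13 reads per kb of exon in F replicates 4 and 5, 3.81 in 5d-U replicate 1 and 0.634 in 5d-U replicate 6, against 0.00936 to 0.22 in the other 8 libraries. The 14 immune cell markers summed to 1140 to 3990 CPM (counts scaled to library size) in F and 51.9 to 301 in 2+3d-C, beside 4.05 to 6.9 in 2d-U and 7.85 to 184 in 5d-U. The endothelial markers summed to 1410 to 2300 CPM in F and 306 to 375 in 2+3d-C, against 8.41 to 47.4 in the uncompressed cultures. The fibroadipogenic markers summed to 5160 to 34200 CPM in F and 2550 to 4470 in 2+3d-C, against 132 to 239 in the uncompressed cultures. The smooth muscle and pericyte markers summed to 845 to 1150 CPM in F, 444 to 819 in 2+3d-C and 67.2 to 89.9 in 2d-U, and to 65.8, 643 and 743 in 5d-U replicates 1, 2 and 6. The glial markers summed to 440 to 762 CPM in F and 191 to 612 in 2+3d-C, against 3.13 to 11.9 in the uncompressed cultures. The myofiber markers summed to 103 to 2890 CPM in F, 149 to 236 in 2+3d-C, 97.7 to 163 in 2d-U, and 193, 2080 and 3630 in 5d-U. The 12 MuSC markers summed to 3850 to 8250 CPM in F and the uncompressed cultures and 16200 to 18000 in 2+3d-C. Of that sum in 2+3d-C, Myod1 had 4160.22 to 8463.37 CPM. Chrna1 went the other way, at 67.49 to 97.36 CPM in 2+3d-C against 1176.47 to 3270.48 in the uncompressed cultures. Calcr had 0 reads in 2d-U replicates 2 and 3 and in 5d-U replicate 2. In 2+3d-C against 5d-U, 7 of the 12 were called higher and 1 lower, beside 22.6% called among all tested genes. In such bulk libraries, fewer cells of a type and less RNA per cell cannot be told apart.

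Bdkrb1 was far higher in the compressed cells than in any other group. Its level per exon length (RPKM, reads scaled to exon length and library size) was 207 in 2+3d-C replicate 4, 655 in replicate 5 and 129 in replicate 10, from 15845, 7780 and 4066 reads. The 3 F libraries had 63.9, 14.1 and 20.9 RPKM, the highest in replicate 1. The 2d-U libraries had 3.9, 5.65 and 8.18 RPKM and the 5d-U libraries 7.67, 2.87 and 9.92. The order of the groups was thus 2+3d-C (330 ± 284 RPKM, SD, n = 3), F (33 ± 27), 5d-U (6.82 ± 3.6) and 2d-U (5.91 ± 2.15), with no library of 2+3d-C as low as any of F and no library of F as low as any uncompressed culture. The neighbours 5d-U and 2d-U overlapped, and their log2 fold change of 0.20 ± 0.676 (SE) gave an adjusted p of 0.873 in edgeR's quasi-likelihood test with Benjamini-Hochberg adjustment, with its sign depending on the scaling.

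**Figure D1:**
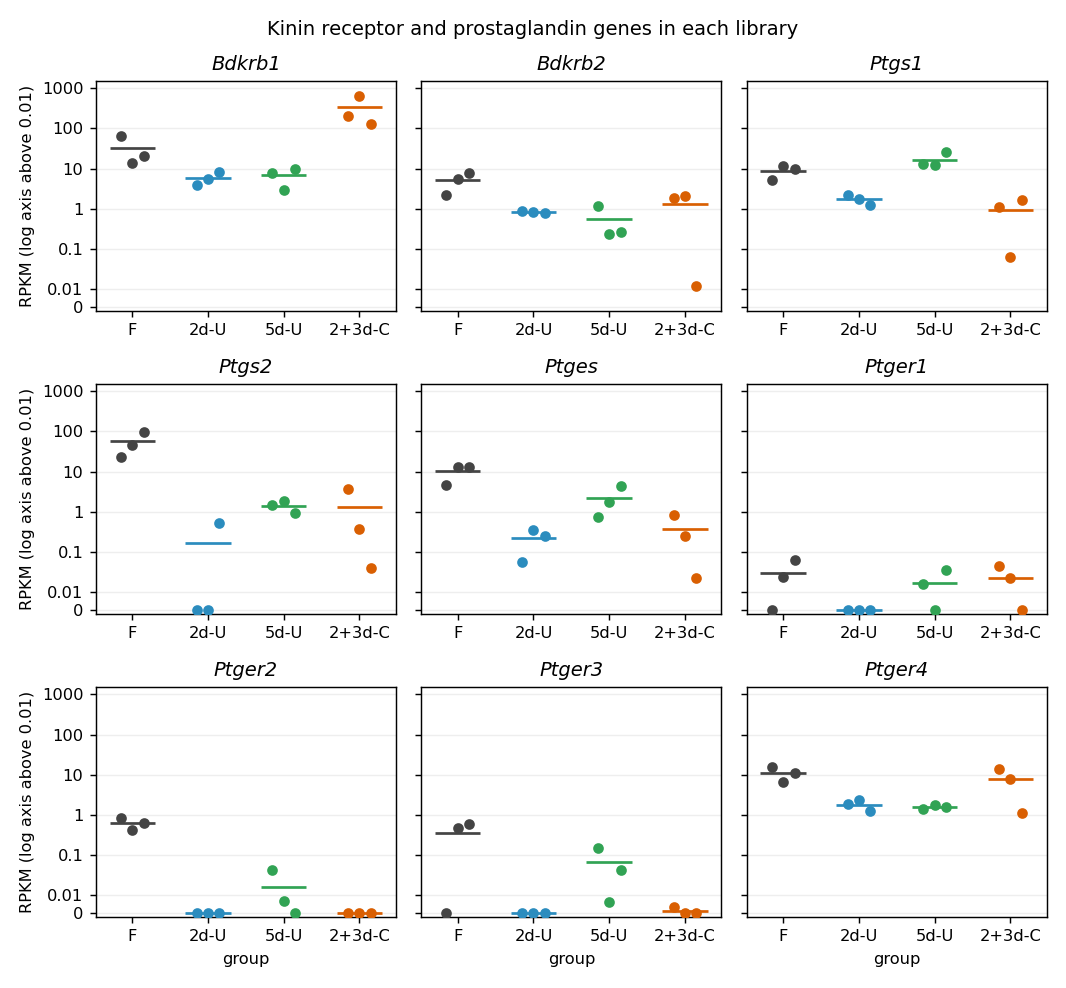
RPKM (vertical, logarithmic above 0.01 and linear down to 0) of the 9 genes in the 12 libraries by group (horizontal, 3 per group). Points are libraries in the order of their replicate numbers and lines are group means. Bdkrb1 lies between 129 and 655 in 2+3d-C, above all other libraries, whereas Ptgs2 and Ptges are highest in F.

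On the log2 scale Bdkrb1 in 2+3d-C stood 5.60 ± 0.818 (SE) above 5d-U, 5.80 ± 0.825 above 2d-U and 3.32 ± 0.734 above F, which are folds of 48.5, 55.9 and 10. F stood 2.48 ± 0.709 above 2d-U. When each library of a compared pair was left out in turn, the value ranged from 4.62 to 5.97 against 5d-U, from 4.83 to 6.18 against 2d-U and from 2.36 to 4.06 against F. Among the 9123 genes of at least 10 CPM, Bdkrb1 had the rank of 5 by its log2 fold change over F, and 22 among all genes tested. In 2+3d-C its mean RPKM exceeded that of 99.3% of the tested genes, compared with 93.9% in F and, without compression, 75.9% at day 2 and 75.6% at day 5. The summed fibroadipogenic, endothelial, immune, glial and smooth muscle markers given above were also higher under compression than in 2d-U. Of the 14 immune markers, Ptprc, Adgre1 and Cd3e had 0 reads in all compressed libraries, whereas Lyz2 had 27.96, 70.3 and 5.21 CPM, Cd14 had 37.45, 90.72 and 12.8, and S100a9 had 25.02, 62.21 and 0. The part of other cell types in the level of Bdkrb1 was not tested.

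Bdkrb2, the receptor for intact bradykinin, did not follow Bdkrb1. It was highest in F, at 2.25, 5.37 and 7.79 RPKM. The 2d-U libraries lay close together at 0.872, 0.826 and 0.777, and the 5d-U libraries had 1.18, 0.23 and 0.258. In 2+3d-C it had 1.87 and 2.07 RPKM in replicates 4 and 5 but 0.0121 in replicate 10, from 1 read, so that these libraries lay both above and below the uncompressed ones. None of the tests of Bdkrb2 passed: its log2 fold change was 1.24 ± 1.13 in 2+3d-C against 5d-U (adjusted p = 0.399, edgeR's quasi-likelihood test with Benjamini-Hochberg adjustment), 0.67 ± 1.12 against 2d-U (0.773) and 2.64 ± 1.17 in F against 2d-U (0.0739). The step from F to 2d-U passed with DESeq2 (adjusted p = 0.0226), without the filter (0.0409) and when only the libraries of both groups were fitted (0.00527), and that from F to 5d-U (3.20 ± 1.21, adjusted p = 0.0763) passed under 5 of the 7 other settings.

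Both receptor genes lie on chromosome 12 on the plus strand, Bdkrb2 at chr12:105563226-105595237 and Bdkrb1 at chr12:105603085-105605428 (mm10), with 7847 bases between them. Their exons, of 3792 and 1435 bases, overlap no other gene of the annotation. The ratio of Bdkrb1 to Bdkrb2 in RPKM was 28.4, 2.63 and 2.69 in F. It was 4.47, 6.84 and 10.5 in 2d-U and reached 6.49, 12.5 and 38.4 in the 5d-U libraries. In 2+3d-C it was 110, 316 and 10700, the last of them over the single read of Bdkrb2. All 3 compressed libraries were above the 9 others.

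Ptgs2 and Ptges were highest in freshly isolated cells, whereas Ptgs1 was highest in 5d-U. Ptgs2, the inducible cyclooxygenase, had 23.7, 47.2 and 99 RPKM in F, from 2612, 6724 and 17925 reads. In 2d-U it had 0 reads in replicates 1 and 2 and 106 in replicate 3 (0.513 RPKM). In 5d-U it had 1.52, 1.84 and 0.918 RPKM and in 2+3d-C 3.66, 0.369 and 0.0399. F stood apart from all cultures, while the compressed libraries ran from within the range of the uncompressed ones to above it.

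In F against 2d-U, 6 of the 7 tested genes other than Bdkrb1 were called, all of them higher in F, where 43.8% of the 22635 genes tested were called in either direction. Ptger2 entered the test only through its reads in F, and Ptger3 only through 2 libraries of F and 1 of 5d-U, so this count does not speak for the set. Ptgs2 was higher in F by 8.34 ± 1.86 on the log2 scale (adjusted p = 0.00448, edgeR's quasi-likelihood test with Benjamini-Hochberg adjustment), a value that rests on 2d-U replicate 3, the 1 library of that group with reads, and was 15.91 without it. Ptges was higher by 5.53 ± 1.19 (adjusted p = 0.00361) and Ptgs1 by 2.36 ± 0.76 (0.027). All of these lie above the median of all tested genes in this contrast, which was 1.63, or 1.54 without TMM scaling. The call of Ptgs1 was lost without F replicate 4 (adjusted p = 0.0751) or 5 (0.065) and without each of the 2d-U libraries (0.0552 to 0.0835). The summed fibroadipogenic, endothelial, immune, glial and smooth muscle markers given above were also higher in F than in 2d-U. The part of other cell types in the levels of Ptgs2, Ptges and Ptgs1 was not tested.

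The promoters of these enzymes and of the receptor Ptger4 are shown because these 4 genes passed the test in F against 2d-U with reads in both groups. Each run holds 250 bases before and 50 after the start of the gene in RefSeq (GRCm38.p6, the same coordinates as mm10), read 5′ to 3′ on the strand of the gene, and 7 of the 9 genes had an entry. The search covered, on both strands, the letters of the CREB core site (TGACG), the E-box (CACGTG), the C/EBP site (TTGCNNAA), a loose NF-kB site (GGGA and CC with 4 bases between), the AP-1 site (TGANTCA) and the TATA box (TATAAA), and capitals mark each match.
Ptgs2, chr1:150099781-150100080, plus strand: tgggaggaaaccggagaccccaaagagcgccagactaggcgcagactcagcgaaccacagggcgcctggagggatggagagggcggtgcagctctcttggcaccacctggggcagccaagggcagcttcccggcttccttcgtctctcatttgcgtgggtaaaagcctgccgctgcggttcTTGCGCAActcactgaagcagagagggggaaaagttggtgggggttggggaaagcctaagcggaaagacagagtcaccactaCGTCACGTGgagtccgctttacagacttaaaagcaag
Ptges, chr2:30903248-30903547, minus strand: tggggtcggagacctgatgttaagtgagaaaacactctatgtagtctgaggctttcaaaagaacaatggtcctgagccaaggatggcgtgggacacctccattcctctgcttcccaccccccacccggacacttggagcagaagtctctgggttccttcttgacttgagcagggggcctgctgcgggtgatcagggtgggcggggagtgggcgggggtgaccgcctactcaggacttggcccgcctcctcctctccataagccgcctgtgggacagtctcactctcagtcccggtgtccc
Ptgs1, chr2:36230176-36230475, plus strand: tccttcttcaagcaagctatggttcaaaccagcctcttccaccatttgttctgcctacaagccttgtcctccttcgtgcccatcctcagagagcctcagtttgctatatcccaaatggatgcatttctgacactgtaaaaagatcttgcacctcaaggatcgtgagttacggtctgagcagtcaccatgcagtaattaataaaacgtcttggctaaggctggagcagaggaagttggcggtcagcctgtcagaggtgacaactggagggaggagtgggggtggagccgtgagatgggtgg
Ptger4, chr15:5244138-5244437, minus strand: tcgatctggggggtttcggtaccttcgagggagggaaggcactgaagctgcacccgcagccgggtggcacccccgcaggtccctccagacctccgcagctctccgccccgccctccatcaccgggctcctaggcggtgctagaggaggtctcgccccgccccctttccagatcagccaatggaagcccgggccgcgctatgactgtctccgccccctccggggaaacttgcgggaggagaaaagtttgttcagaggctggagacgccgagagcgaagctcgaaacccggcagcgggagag

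The Ptgs2 window held 3 matches, a C/EBP match at position -69 from the start and, at 14 and 17, a CREB core site and an E-box that share 2 bases. Of all 32851 windows in the table, 10.8% held a C/EBP match, 20.8% a CREB core site and 7.15% an E-box. The windows of Ptges, Ptgs1 and Ptger4 held none of these letters. The matches are given as a description of the sequence, and the RefSeq start of Ptges lies 26566 bases inside the gene as the count files define it. In GC content the 4 windows ran from 50.7% in Ptgs1 to 59.3% in Ptgs2, 60.0% in Ptges and 67.0% in Ptger4.

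Ptges, which couples to the cyclooxygenases, had 4.66, 13.1 and 12.8 RPKM in F. The 2d-U libraries had 0.0577, 0.359 and 0.248 and the 5d-U libraries 0.752, 1.73 and 4.32. Under compression it had 0.854, 0.246 and 0.0232 RPKM, highest in replicate 4 and lowest in replicate 10, as Ptgs2 was. Its lower level in 2+3d-C than in 5d-U (log2 fold change -2.56 ± 1.04) did not pass (adjusted p = 0.0848, edgeR's quasi-likelihood test with Benjamini-Hochberg adjustment), but did without 2+3d-C replicate 4 (-4.24, adjusted p = 0.0256). In F against 5d-U, Ptges was 2.17 ± 1.02 higher (adjusted p = 0.164). Against F as a description, the log2 fold change of 2+3d-C was -4.73 in Ptges and -5.35 in Ptgs2, with no overlap between the libraries.

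Ptgs1, the cyclooxygenase that many tissues express at rest, had another pattern. It was lowest in the compressed cells, at 1.1, 0.0622 and 1.68 RPKM, and highest in 5d-U, at 12.6, 12.4 and 25.1. F had 5.29, 11.3 and 9.56 RPKM and 2d-U 2.14, 1.71 and 1.25. The compressed libraries overlapped those of 2d-U and lay below every library of F and 5d-U. In 2+3d-C against 5d-U, 2 of the 7 tested genes other than Bdkrb1 were called, 1 in each direction, near the 22.6% called among all genes tested. Ptgs1 was the lower of them, by -4.11 ± 0.822 on the log2 scale, a 17.3-fold lower level (adjusted p = 0.00277, edgeR's quasi-likelihood test with Benjamini-Hochberg adjustment). The median of all tested genes in this contrast was -1.05, or -1.21 without TMM scaling. The call passed whichever of the 12 libraries was left out (-4.76 to -3.59, highest adjusted p = 0.00925) and in the 7 other settings.

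From 2d-U to 5d-U, Ptgs1 was the 1 gene called of the 7, where 2.12% of all tested genes were. It was higher by 3.29 ± 0.79 (adjusted p = 0.0465, edgeR's quasi-likelihood test with Benjamini-Hochberg adjustment), beside a median of all genes of 1.13. The call did not pass without TMM scaling (adjusted p = 0.112), after subtraction of the reads expected from the silent families (0.0957) or without 5d-U replicate 6 (0.114), and passed in 5 of the 12 fits that left out a library. With the replicate number as a block it did not pass either (0.0676). Without F replicate 1, 4 or 5 it stood at 0.0811, 0.0709 and 0.0769, and without 2d-U replicate 1, 2 or 3 at 0.0897, 0.111 and 0.139. Ptgs2 (3.03 ± 1.48, adjusted p = 0.158) and Ptges (3.36 ± 1.08, adjusted p = 0.0937) had values of the same sign, with no overlap between the libraries of the groups. Ptgs2 was 10.62 (adjusted p = 0.0339) without 2d-U replicate 3 and passed without the filter (0.000455), and Ptges passed with DESeq2 (0.0239), without the filter (0.0166) and without 2+3d-C replicate 10 (0.0293). The smooth muscle and myofiber markers given above were also higher in 5d-U replicates 2 and 6 than in 2d-U, and their part in these differences was not tested.

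**Figure D2:**
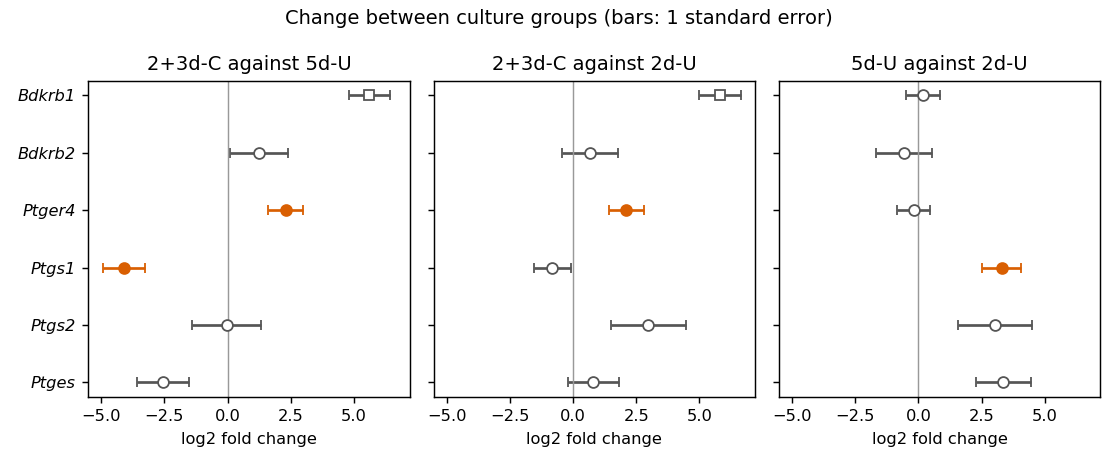
log2 fold change (horizontal, bars 1 standard error) of 6 genes between the cultured groups. Filled circles had an adjusted p under 0.05, open circles did not, and open squares mark Bdkrb1 where it was not tested. Ptgs1 lies at -4.11 in 2+3d-C against 5d-U and at 3.29 in 5d-U against 2d-U, and Ptger4 at 2.30 in 2+3d-C against 5d-U.

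The balance of the cyclooxygenases differed among libraries of the same group. The ratio of Ptgs2 to Ptgs1 in RPKM was 4.48, 4.17 and 10.4 in F, so that Ptgs2 led in every library. In the uncompressed cultures Ptgs1 led in every library, with ratios of 0, 0 and 0.409 at day 2 and of 0.121, 0.148 and 0.0366 at day 5. In 2+3d-C it was 3.33 in replicate 4, 5.94 in replicate 5 and 0.0237 in replicate 10. The compressed libraries thus fell on both sides of 1, and the value of replicate 5 rests on 2 reads of Ptgs1 and 14 of Ptgs2.

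**Figure D3:**
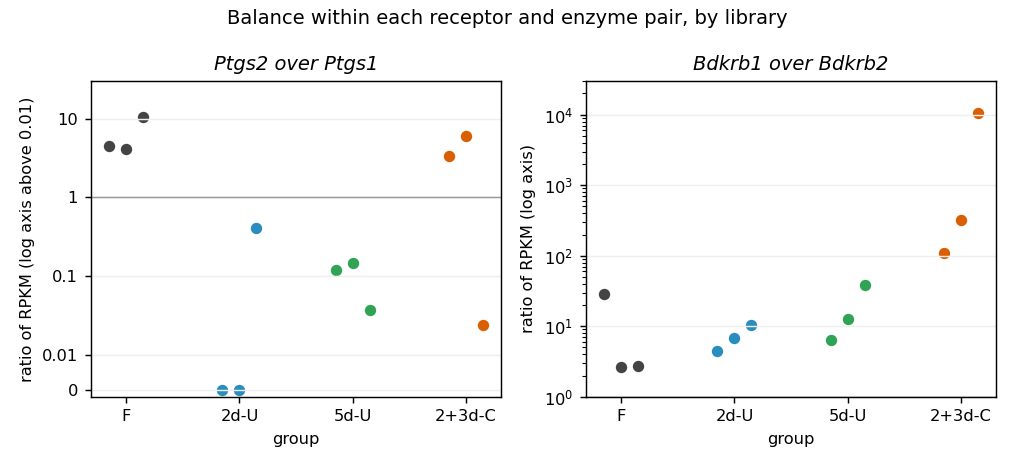
Ratio of RPKM (vertical) of Ptgs2 to Ptgs1 (left, logarithmic above 0.01) and of Bdkrb1 to Bdkrb2 (right, logarithmic) in each of the 12 libraries by group (horizontal), with a line at equal levels on the left. Ptgs2 exceeds Ptgs1 in F (4.17 to 10.4) and in 2 of the 3 libraries of 2+3d-C, and Bdkrb1 exceeds Bdkrb2 in all 12 libraries.

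Of the prostaglandin E2 receptors, Ptger4 carried nearly all of the measured RNA. It accounted for 86.9% to 100% of the summed RPKM of the 4 receptor genes in each of the 12 libraries. It had 15.9, 6.52 and 10.9 RPKM in F. Without compression it had 1.89, 2.29 and 1.22 at day 2 and 1.39, 1.8 and 1.55 at day 5. In 2+3d-C, it had 14.2 in replicate 4 and 7.9 in replicate 5, within the range of F, but 1.13 in replicate 10, below all uncompressed libraries.

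Ptger4 was the gene called higher in 2+3d-C against 5d-U, by 2.30 ± 0.692 on the log2 scale (adjusted p = 0.0281, edgeR's quasi-likelihood test with Benjamini-Hochberg adjustment), although the libraries overlapped. Leaving out 2+3d-C replicate 4 brought it to 1.5 (adjusted p = 0.155), and the call was also lost without 5d-U replicate 1 (0.0651), 2 (0.057) or 6 (0.0824) and with only the libraries of both groups fitted (0.0664). Without 2+3d-C replicate 10 it was 2.80. Against 2d-U, Ptger4 was again the 1 gene called of the 7, where 24.6% of all genes tested were, at 2.11 ± 0.686 (adjusted p = 0.0373) beside a median of 0. That call was lost without TMM scaling (1.48, adjusted p = 0.121), in the fit of both groups alone (0.101) and without 1 library in 7 of the 12 cases, namely F replicate 1 (0.0503) or 5 (0.0519), 2d-U replicate 1 (0.0883), 2 (0.0671) or 3 (0.125), and 2+3d-C replicate 4 (1.31, 0.221) or 5 (0.0532). It was also lost with the replicate number as a block (3.42, adjusted p = 0.0855).

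F exceeded the uncompressed cultures in Ptger4 without overlap, by 2.62 ± 0.70 against 2d-U (adjusted p = 0.0116, edgeR's quasi-likelihood test with Benjamini-Hochberg adjustment) and 2.81 ± 0.706 against 5d-U (adjusted p = 0.0103). Both calls passed with each library of those groups left out. Ptger4 and Ptgs2 were the 2 genes called of the 7 in F against 5d-U, near the 20.5% among all tested genes. Ptgs2 was higher there by 5.31 ± 1.62 (adjusted p = 0.03), which did not pass without F replicate 5 (0.0903) or without 5d-U replicate 2 (0.0622) or 6 (0.0909). From 2d-U to 5d-U the change of Ptger4 was -0.19 ± 0.661 (adjusted p = 0.88), and against F, as a description, 2+3d-C stood at -0.52 ± 0.66 with overlapping libraries. Of the exon bases of Ptger4, 16.5% are shared with genes on the other strand, 82 bases with Ttc33 and 1015 with Gm15937. Reads on shared bases were counted for neither gene, so the 0 reads of Gm15937 do not show that this stretch was silent. The RPKM of Ptger4 still uses its full exon length.

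Ptger2 and Ptger3 had most of their reads in F. Ptger2 had 103, 69 and 127 reads in F, 0 in all libraries of 2d-U and 2+3d-C, and 5, 1 and 0 in 5d-U. A count of 0 allows up to 3 reads, which is 0.0481 to 0.239 CPM in these libraries before TMM scaling of their sizes. With TMM scaling, 2 reads of Ptgs1 in 2+3d-C replicate 5 already stood at 0.242 CPM. With 3 reads per library in place of 0, F stood 40.4-fold above 2d-U. This value includes the reads of F expected from the silent families and would be lower without them. Since Ptger2 entered the test only through its reads in F, its p-values for F are not given. The reads of F exceeded those expected from the density on silent families (1.14, 26.1 and 37 reads), and the 5 reads of 5d-U replicate 1 did not (19.8).

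Ptger3 had 84 and 133 reads in F replicates 4 and 5 but 0 in replicate 1, and 0 in all of 2d-U. These are the 2 F libraries with many reads on silent families, from which 28.6 and 40.6 reads would be expected on Ptger3. In 5d-U it had 20, 1 and 5 reads, against 21.7, 0.333 and 3.61 expected, and in 2+3d-C 1, 0 and 0. By the same floor, F stood 25.2-fold above 2d-U, although F replicate 1 was as low as 2d-U. This value too includes the reads expected from the silent families and would be lower without them. No p-value is given for Ptger3, since the reads of F brought it into the test.

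Ptger1 did not enter the test, with 0, 4 and 14 reads in F, 13, 1 and 0 in 2+3d-C, 2, 0 and 4 in 5d-U and none in 2d-U. The 4 and 14 reads of F are fewer than the 27.5 and 38.9 expected from the silent families.

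The genes most like each receptor or enzyme in pattern were found by Pearson's r of log2 CPM over the 12 libraries, among named genes of at least 10 CPM. This is a description over libraries that share groups and depth. For Bdkrb1 they were Gsap (r = 0.984), Tgif1 (0.983) and Clmp (0.979), with mean RPKM in 2+3d-C of 30.3, 247 and 116 against 2.75, 28.4 and 7.91 in 5d-U. For Bdkrb2 they were Fjx1 (0.969), Penk (0.939) and Gulp1 (0.934), each highest in F. Ptgs2 was most like Ptprm (0.94), Slco3a1 (0.936) and Smoc2 (0.935), and Ptges most like Sema6b (0.935), Clec11a (0.926) and Sh3kbp1 (0.914). Ptgs1 was most like Lrrc28 (0.931), Unc5b (0.924) and Eps8 (0.921), all with lower means under compression than in 5d-U. The nearest genes to Ptger4 were Tfpi2, Retnlg and Zfp84 (0.914, 0.914 and 0.913). Retnlg, a gene of neutrophils, had a mean of 125 RPKM in F and 21.2 in 2+3d-C against 0.523 in 5d-U and 0 in 2d-U. Those nearest to Ptger2 were Rgs1 (0.994), Mmrn1 (0.978) and Cytip (0.975), and those nearest to Ptger3 were Igha (0.943), Grn (0.894) and Col8a2 (0.852). Igha is an immunoglobulin gene, and Rgs1 and Cytip are known from lymphocytes. The part of other cell types in the levels of these receptors and enzymes was not tested.

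Of 21 tested genes of kinin formation and breakdown, 5 were higher and 2 lower with compression than in 5d-U (median log2 fold change -0.30, against -1.05 over all tested genes, of which 22.6% were called). Serping1, the inhibitor of plasma kallikrein and C1, rose by 9.85 ± 0.738 (adjusted p = 2.8e-06, edgeR's quasi-likelihood test with Benjamini-Hochberg adjustment) to 779 RPKM, from 0.85 in 5d-U and 0.567 in 2d-U, with 516 in F. Ace, which degrades bradykinin, rose by 5.84 ± 0.94 (adjusted p = 0.00102), to 2.63 RPKM against 12.3 in F. Ece1, another peptidase that cuts bradykinin, rose by 3.82 ± 0.703 (adjusted p = 0.00162). Chosen after its values were seen, the kininogen Kng2 rose by 6.44 ± 1.36 (adjusted p = 0.00518), to 7.23 ± 8.02 RPKM, whereas Kng1 had 1 read in the 3 compressed libraries together, and the kallikreins Klkb1 and Klk1 had 0. Cpm, the membrane carboxypeptidase that takes the last arginine off kinins and was likewise picked after its values were seen, had 6.33 ± 1.56 RPKM in F, 0.292 in 2d-U, 0.276 in 5d-U and 1.45 ± 1.76 in 2+3d-C. In F against 2d-U, 16 genes of this list were higher and 3 lower, beside the 43.8% called among all tested genes. After subtraction of the reads expected from silent families, 11 were higher and 3 lower. Some of the higher genes were in the test through their reads in F. Dpp4 had 4556 reads in F and 47 in 5d-U, Xpnpep2 688 and 11, and both had 0 in 2d-U and 2+3d-C. The count therefore does not speak for the list.

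Around the cyclooxygenases, the list of arachidonic acid release had 1 gene higher and 2 lower of 18 in 2+3d-C against 5d-U (median log2 fold change -0.57), which is no more than the 22.6% called among all tested genes. Mgll, a lipase of monoacylglycerols, rose by 3.88 ± 0.72 (adjusted p = 0.00174, edgeR's quasi-likelihood test with Benjamini-Hochberg adjustment). The lower ones were the phospholipases Pla2g4c and Pla2g2d, which had 0 reads in 2+3d-C and means under 1 RPKM elsewhere, and whose calls passed in 4 and in 1 of the 6 fits that left out a library of either group. Of 11 other prostanoid synthases, 1 was higher and 3 lower (median -1.43, with 22.6% called among all tested genes). Gstm2, a glutathione transferase, rose by 2.54 ± 0.662 (adjusted p = 0.0135, but 0.0512 without 5d-U replicate 2), and Cbr1, a carbonyl reductase that acts on prostaglandin E2, fell by 2.65 (SE 0.747, adjusted p = 0.0203, but 0.158 without 5d-U replicate 6). Akr1c18 fell from 15.6 ± 26.5 RPKM to 0 reads (adjusted p = 0.0125, but 0.135 without 5d-U replicate 1). Ptges3, which also makes prostaglandin E2, had 113 ± 104 RPKM in F against 210 in 2d-U, 206 in 5d-U and 172 in 2+3d-C, and Ptges2, picked after its values were seen, 4.13 ± 1.36 against 17.9, 22.6 and 18.9 in the same order. Of 4 other prostanoid receptors tested (median 0.22), 1 was called, near the 22.6% called among all tested genes. It was the prostacyclin receptor Ptgir, with 0 reads in 2+3d-C against 1.19 ± 0.92 RPKM in 5d-U and 7.17 ± 5.81 in F (adjusted p = 0.00871).

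Transport and breakdown of prostaglandins had 1 gene higher and 3 lower of 8 in 2+3d-C against 5d-U (median log2 fold change -1.16, with 22.6% called among all tested genes). Slco2a1, which takes prostaglandins into cells, rose by 7.65 ± 1.11 (adjusted p = 0.000309, edgeR's quasi-likelihood test with Benjamini-Hochberg adjustment), to 33.1 ± 32.9 RPKM from 0.165 in 5d-U, with 15.4 in F. Ptgr1, a prostaglandin reductase, fell by 5.27 (SE 0.594, adjusted p = 4.48e-05), from 284 ± 212 RPKM to 7.34 ± 0.302, beside 220 in 2d-U and 5.3 in F. Ptgr2 fell by 2.39 (SE 0.591, adjusted p = 0.00999, but 0.0642 without 5d-U replicate 6). In the leukotriene branch, which competes for the same arachidonic acid, 3 of 12 genes were lower and 0 higher (median -0.09), near the 22.6% called among all tested genes. Alox5, the lipoxygenase that opens the branch, fell by 8.15 (SE 1.17, adjusted p = 0.000284), having 22.7 ± 11.8 RPKM in 5d-U and 0.0624 in 2+3d-C (fell by 14.42 without 2+3d-C replicate 4, the 1 such library with reads), and Ltc4s, the leukotriene C4 synthase, had 0 reads in 2+3d-C against 8.29 ± 5.02 RPKM in 5d-U (adjusted p = 0.000498).

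**Figure D4:**
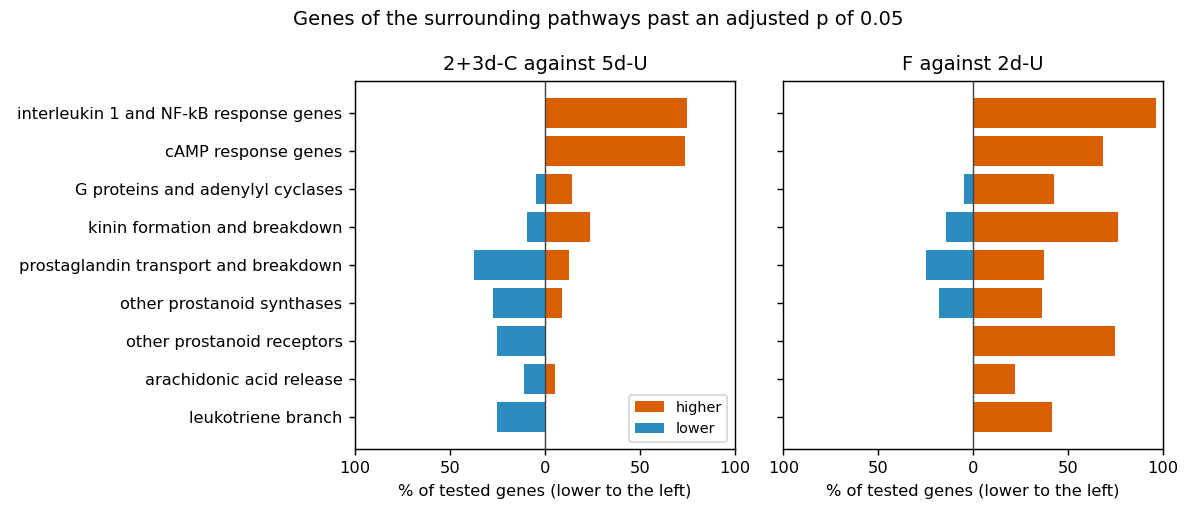
Share of the tested genes of 9 lists (vertical) that were higher (right of 0) or lower (left of 0) at an adjusted p under 0.05, in percent (horizontal), in 2+3d-C against 5d-U and in F against 2d-U. The interleukin 1 and NF-kB list had 21 of 28 genes higher in the first contrast and 27 in the second, and neither had a lower one. The lists were chosen with earlier results of these data known, and some of their genes had reads almost only in F, so the shares are descriptions.

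Signalling downstream of the receptors and the interleukin 1 and NF-kB response were covered by 3 lists. All lists of this report were chosen with earlier results of these data known. Their counts are therefore descriptions and no independent support, also where a background share stands beside them. Of 21 G proteins and adenylyl cyclases, 3 were higher and 1 lower (median log2 fold change 0.33), near the 22.6% called among all tested genes, among them the cyclase Adcy2 (5.69 ± 0.646, adjusted p = 4.63e-05, edgeR's quasi-likelihood test with Benjamini-Hochberg adjustment) and Gna13 (3.47 ± 0.513, adjusted p = 0.000352). Of 19 genes known to respond to cAMP, 14 were higher and 0 lower, with a median log2 fold change of 3.86, beside -1.05 and 22.6% called over all tested genes. Fos rose by 7.30 ± 0.667 (adjusted p = 9.83e-06) and Nr4a1 by 7.42 ± 0.559 (adjusted p = 2.8e-06), to 562 and 111 RPKM beside 826 and 209 in F. Many signals other than prostaglandin E2 induce these genes. Of 28 genes of the interleukin 1 and NF-kB response, the setting in which Bdkrb1 and Ptgs2 are known to be induced, 21 were higher and 0 lower, with a median of 4.77. Cxcl1 rose by 12.06 ± 1.79 (adjusted p = 0.000356) and Nfkb1 by 5.34 ± 0.517 (adjusted p = 1.52e-05), to 67.8 RPKM beside 26 in F. In the same comparison Ptgs2 stood at -0.04 ± 1.36 (adjusted p = 0.984), with a sign that changed with the settings. Of the ligands themselves, picked after their values were seen, Il1a had 0 reads in 2+3d-C and Il1b 0.487 ± 0.789 RPKM, against 5 ± 2.08 and 22.3 ± 5.25 in F.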

How the data were processed

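Counts of 12 mouse MuSC libraries were analysed, 3 per group, with groups and replicate numbers from the labels. The authors aligned single-end reads of SMART-Seq cDNA to mm10 with the nf-core pipeline, and the deposited counts are whole reads per gene on exons of GENCODE vM23, made with featureCounts 1.6.4 without strand and without reads that touch more than 1 gene, and not normalized. A merged table of the same counts was not used.

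Counts were tested in R 4.3.3 with edgeR 4.0.16: filterByExpr (22635 genes kept), TMM, 1 quasi-likelihood fit of all 12 libraries, two-sided contrasts and Benjamini-Hochberg adjustment over the tested genes, called at an adjusted p under 0.05. RPKM used TMM-scaled library sizes and exon length, and log2 CPM a prior count of 2. Folds against a group at 0 used 3 reads per library as the floor, which covers counting error only. The SE is the log2 fold change over the root of the F statistic. The procedure was tested on simulated data.

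The members and lists were chosen with earlier results of these data known. Named were all 9 members and, from each list, the 2 genes with the highest mean RPKM and up to 3 called in 2+3d-C against 5d-U with the smallest p, of which the text gives a part, and genes outside this rule are marked. Of the listed symbols, 2 were matched through RefSeq synonyms and Ptgr3 and Icer had no match. The alternatives were DESeq2 1.42.0, no TMM, no filter, a mean of at least 5 CPM, the compared groups alone, the replicate number as a block, subtraction of the reads expected from silent families, and each library left out. 1 result on overlapping exons is not reported here.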

Additional observations from a re-analysis of the deposited data

How the results depend on the processing

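The count of called genes among the 7 was compared over the settings. In 2+3d-C against 5d-U it was 2, and 1 with the compared groups alone. In 2+3d-C against 2d-U it was 1, and 0 without TMM, 2 without the filter and 0 with the compared groups alone. In 5d-U against 2d-U it was 1, and 2 with DESeq2, 0 without TMM, 3 without the filter and 0 after subtraction of silent-family reads. In F against 5d-U it was 2, and 5 with DESeq2, 4 with the compared groups alone and 4 after the subtraction. These 3 larger counts in F against 5d-U include Ptger2. Over all genes, DESeq2 called 3611 higher and 2666 lower there of 22635 tested. The compared groups alone gave 2805 and 3259 of 21832, and the subtraction 2940 and 2582 of 18698. With each library left out, the count among the 7 ranged from 1 to 2, 0 to 1, 0 to 2 and 1 to 4 in the comparisons above, in their order. In F against 2d-U it ranged from 5 to 7 and stayed within 1.5 times of 6 in all settings. The 6 include Ptger2 and Ptger3, which reads of F brought into the test, so this steadiness does not speak for the set. The cause of the differences among settings was not tested.

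Signs changed in the following values. In 2+3d-C against 5d-U, Ptgs2 was 0.08 with DESeq2, 0.18 without the filter, 0.01 at a mean of at least 5 CPM and 0.16 after the subtraction, and -2.97 to 0.52 with libraries left out. In 5d-U against 2d-U, Bdkrb1 was -0.29 without TMM, -0.11 without the filter, -0.16 with the compared groups alone and -0.17 to 0.58 with libraries left out, and Ptger4 -0.52 to 0.02. In 2+3d-C against 2d-U, Bdkrb2 was -0.02 without TMM and Ptges -0.88 to 1.37 with libraries left out. Ptger4 in 2+3d-C against F was -1.30 to 0.01.

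Deviations of libraries with the same replicate number correlated at -0.424 to 0.0322. These few pairs cannot tell whether equal numbers share a batch of sorted cells. The study says that sorted batches were divided at random over its conditions, and the labels do not name the batch. With the replicate block the number of called genes was 3 in 2+3d-C against 5d-U, 1 against 2d-U, 1 in 5d-U against 2d-U, 4 in F against 2d-U and 2 in F against 5d-U. The genes called were not all those of the main fit. Against 2d-U, Ptgs2 was called in 2+3d-C (9.07, adjusted p = 7.21e-05, edgeR's quasi-likelihood test) and in 5d-U (10.86, 1.47e-11). Ptgs2 had 0 reads in 2d-U replicates 1 and 2. Against 2d-U, Ptger4 in 2+3d-C (0.0855) and Ptgs1 in 5d-U (0.0676) and F (0.49) no longer passed. In this fit Ptger3 in F against 5d-U was -7.67, Ptger4 in 2+3d-C against F 0.33, and Bdkrb2 -1.01 in 2+3d-C against 2d-U, with -0.33 when 5d-U was the control.

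Over all genes, 5d-U against 2d-U gave 424 higher and 55 lower, against 2251 and 373 with DESeq2, 126 and 45 without TMM, and 1867 and 199 without the filter. In 2+3d-C against 2d-U, 3619 were higher and 1954 lower, against 2537 and 3139 without TMM, and in F against 5d-U 2014 and 2629, against 3611 and 2666 with DESeq2. Reads of 0 to 20 on Ptger1, Ptger2 and Ptger3 in the cultures limit what can be said of them.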
